A study of Mus musculus with 2 samples.

Results

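Runx3 is a transcription factor of the Runt-domain family, which binds DNA together with the partner protein Cbfb and is expressed in natural killer (NK) cells and cytotoxic T cells. NK cells are lymphocytes that kill infected or transformed cells with perforin and granzymes and secrete cytokines such as interferon gamma. IL-15 is the cytokine that keeps them alive and activates them. Binding sites of lineage factors often lie in groups, in which several regulatory elements surround 1 gene or a few neighbouring genes. The stretches described here are groups of Runx3 peaks that lie close together on the chromosome. They comprised 742 of 17490 autosomal joined peaks (4.24%), in 126 chains on all 19 autosomes.

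The data come from chromatin immunoprecipitation followed by sequencing (ChIP-seq) in splenic NK cells of ICR mice. All mice had been given IL-15/Ra complexes, which are IL-15 held by the alpha chain of its receptor, in 2 injections with 2 days between them, and NK cells were enriched by negative selection and sorted as NKp46+. For the Runx3 library the precipitating antibody was a polyclonal one made by the laboratory, and for the control library it was non-immune rabbit serum (NIS). Each antibody has 1 library with no replicate, from 40000000 cells per the labels, so the values below describe 1 list of 19647 Runx3 peaks. The labels do not say how many mice were pooled, nor name an untreated group. The name under which the list was deposited contains the words "to small", and it is unknown whether all called peaks are in it. A reduced list would change the number, size and cover of the chains. The list carries positions only, so the read depth behind a peak is unknown, no peak has a height, and no test between libraries was possible.

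Members were chosen by position alone, in mm9 coordinates. Autosomal peaks separated by gaps of at most 1000 bp were first joined, which turned 19335 peaks into 17490 joined peaks. Joined peaks whose midpoints lay at most 10 kb from the next were then chained, and chains of 5 or more were kept. The 742 joined peaks in them held 898 peaks as listed by the authors. Number of peaks, spacing and crowding are therefore set by the rule and are given as a description.

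No gene annotation of mm9 was used. Gene names below come from general knowledge of where these loci lie on the mm9 map, and were given only to chains whose locus was known with confidence. The 29 genes so named were on the same chromosome in the RefSeq gene table of GRCm38 in 29 of 29 cases, and stood in the same order as the chains in 34 of 34 gene pairs at different chains of 1 chromosome. This check covers chromosome and order only, and the distance from a chain to its gene was not measured. Coordinates were not converted, so whether a given peak lies in a promoter, an intron or between genes was not determined. A gene that is not named is not thereby shown to lack a chain.

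With these names, 25 of the 126 chains lay at 29 of 134 genes from 8 lists of NK cell loci. The lists were chosen with earlier results of these data known, and the share over all genes was not determined. This count and those by list below therefore do not show that chains favour NK genes. The promoter sequences of the named genes show whether the letters that Runt-domain factors recognise are present at their starts. The core was searched as TGTGGT and, for the other strand, ACCACA, in the 250 bases before the start of each gene in the RefSeq promoter table of GRCm38.p6. Of the 29 genes, 20 had an entry, with 25 promoters in all, and 7 of these (28.0%, from 7 genes) held a match. Among all 32851 promoters of the table the share was 14.0%. The shares were not tested against each other. The named genes were not picked at random, so the difference is no measure of what sets genes at chains apart. The genes with a match were Runx3, Prf1, Gzma, Nkg7, Klrb1c, Ccl3 and Il21r. Those with no entry were Ccl4, Ccl5, Itgal, Itgb2, Klrd1, Klrg1, Mir142, Rac2 and Tyrobp.

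Promoters of a transcription factor, a pair of cytotoxic effectors, an NK receptor and a chemokine are shown, each read 5′ to 3′ on the strand of its gene and ending at the last base before the start, with the core in capitals. Runx3 and Prf1 lie on the plus strand of chromosomes 4 and 10, and Gzma, Klrb1c and Ccl3 on the minus strand of chromosomes 13, 6 and 11.
Runx3: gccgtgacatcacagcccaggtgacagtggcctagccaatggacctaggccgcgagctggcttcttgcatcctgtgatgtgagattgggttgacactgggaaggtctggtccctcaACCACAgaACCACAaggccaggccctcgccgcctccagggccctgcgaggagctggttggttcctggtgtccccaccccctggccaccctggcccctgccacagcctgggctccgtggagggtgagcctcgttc
Prf1: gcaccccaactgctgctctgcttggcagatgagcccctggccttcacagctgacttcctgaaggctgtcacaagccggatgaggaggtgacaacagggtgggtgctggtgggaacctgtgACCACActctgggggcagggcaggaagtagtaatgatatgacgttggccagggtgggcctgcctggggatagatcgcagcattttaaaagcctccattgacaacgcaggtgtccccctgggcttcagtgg
Gzma: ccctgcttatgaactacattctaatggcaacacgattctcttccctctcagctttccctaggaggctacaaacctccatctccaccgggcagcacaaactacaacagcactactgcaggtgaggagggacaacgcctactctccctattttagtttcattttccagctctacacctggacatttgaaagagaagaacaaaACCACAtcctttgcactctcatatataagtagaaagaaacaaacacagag
Klrb1c: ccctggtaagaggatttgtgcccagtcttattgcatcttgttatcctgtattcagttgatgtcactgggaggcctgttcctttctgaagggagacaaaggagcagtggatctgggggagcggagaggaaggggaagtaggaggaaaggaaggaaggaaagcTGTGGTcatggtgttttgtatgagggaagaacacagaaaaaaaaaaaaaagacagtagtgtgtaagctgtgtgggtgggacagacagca
Ccl3: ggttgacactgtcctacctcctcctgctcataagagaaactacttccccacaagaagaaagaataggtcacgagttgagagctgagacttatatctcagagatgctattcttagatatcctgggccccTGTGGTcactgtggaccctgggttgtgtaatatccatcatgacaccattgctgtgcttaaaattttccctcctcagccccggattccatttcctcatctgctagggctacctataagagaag

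In Runx3 the core occurred at 2 places separated by a pair of bases, beginning 134 and 126 bases before the start. The table holds another Runx3 promoter, which had no match. In Prf1 the match began 130 bases before the start, in Gzma 50, in Klrb1c 89 and in Ccl3 122. A match is a description of the letters and not a binding site. Since the builds differ, whether a peak covers these windows was not determined.

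Chains had a median span of 23.7 kb, with quartiles of 20.2 and 29.7 kb and a range of 11.9 to 51.8 kb. Together they spanned 3.20 Mb, or 0.134% of the 2394 Mb between the first and last peaks of the autosomes, and held 4.67% of all peak bases on them. Deposited peaks covered a median of 18.4% of a chain, from 10.2% to 41.1%, whereas they covered 0.547% of the autosomal span. Most chains were small: 62 held 5 joined peaks, 37 held 6, 14 held 7, 8 held 8, 3 held 9, and the largest held 10 and 11. Just outside the threshold lay 184 chains of 4, with a median span of 16.4 kb and a median cover of 19.1%. Chains of 5, just inside it, had a median span of 20.7 kb and the same cover as all chains, 18.4%.

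Inside the chains the 616 distances between neighbouring midpoints had a median of 4.47 kb, with quartiles of 2.98 and 6.79 kb. They were most frequent between 2 and 3 kb, with 130 pairs, and fell to 93 pairs between 4 and 5 kb. From 5 kb up to the limit of 10 kb the bins of 1 kb held 59, 57, 41, 57 and 45 pairs, as the plot of spacing shows. The bin from 1 to 2 kb held 27 pairs, and joining gaps of at most 1000 bp removes the shortest distances. The bin from 9 to 10 kb held 45 pairs (7.31%), and 37 chains contained such a pair. Outside the chains, the nearest joined peak lay at a median of 17.4 kb and at most 91.1 kb (midpoint to midpoint), and for 16 of the 126 chains it lay at 10 to 11 kb, just past the limit.

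**Figure D1:**
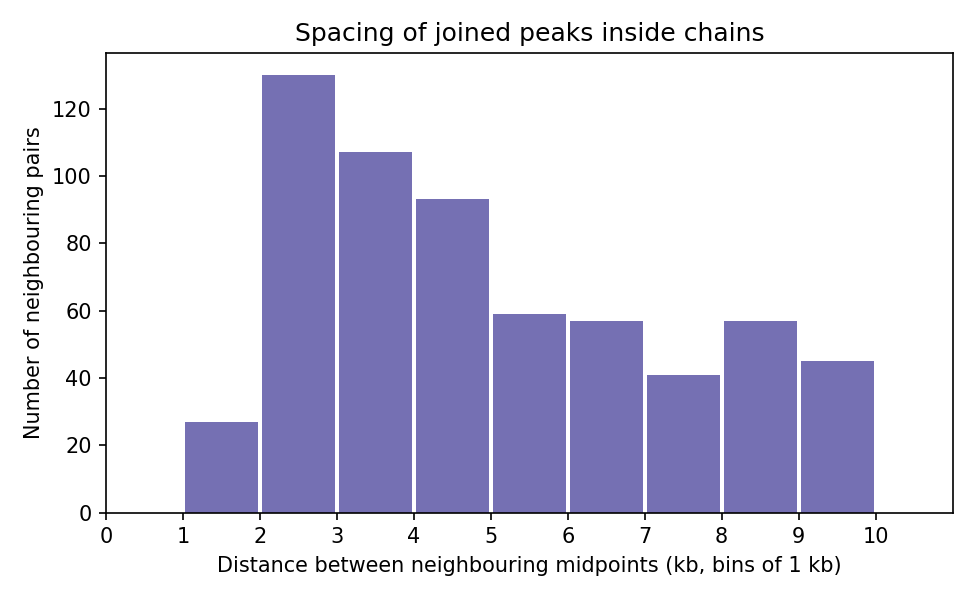
Distances between the midpoints of neighbouring joined peaks inside the 126 chains (x axis, kb, in bins of 1 kb) and the number of neighbouring pairs (y axis). The bin from 2 to 3 kb is the fullest, with 130 pairs, and the bins beyond 5 kb hold 41 to 59.

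Single peaks in chains and elsewhere had much the same width. The median width of deposited peaks was 606.5 bp in chains, 602 bp in chains of 4, 597 bp in chains of 2 to 3 and 608 bp for joined peaks that stood alone. Peaks over 1000 bp made up 10.5% of the deposited peaks in chains and 11.3% of those standing alone. Of the 10 widest autosomal peaks 0 lay in a chain, as did 7 of the 100 widest and 55 of the 1000 widest. Of all autosomal deposited peaks, 4.64% lay in chains. Joined peaks made of more than 1 deposited peak were more frequent in chains, 128 of 742 (17.3%), than among those standing alone (8.23%). The share lay between these in chains of 2 to 3 (9.59%) and in chains of 4 (13.3%). Nearness to other peaks enters both the joining and the chaining, so this share is a description.

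Chains occurred on every autosome, but their number did not simply follow the number of peaks. Chromosome 7 held 12 chains (9.52% of them) with 7.29% of the joined peaks, and chromosomes 4, 9 and 11 held 10 each. Chromosome 11 had the most joined peaks (8.51%), of which 4.16% lay in chains, close to the 4.24% of all autosomes. Chromosome 15 had the highest share in chains, 6.33% of 743 joined peaks, followed by chromosome 9 with 6.09%. Chromosome 16 held 1 chain (0.865% of its 578 joined peaks), and chromosomes 3 and 13 held 2 each. With chains numbering 1 to 12 per chromosome these shares rest on small counts, and their differences were not tested.

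**Figure D2:**
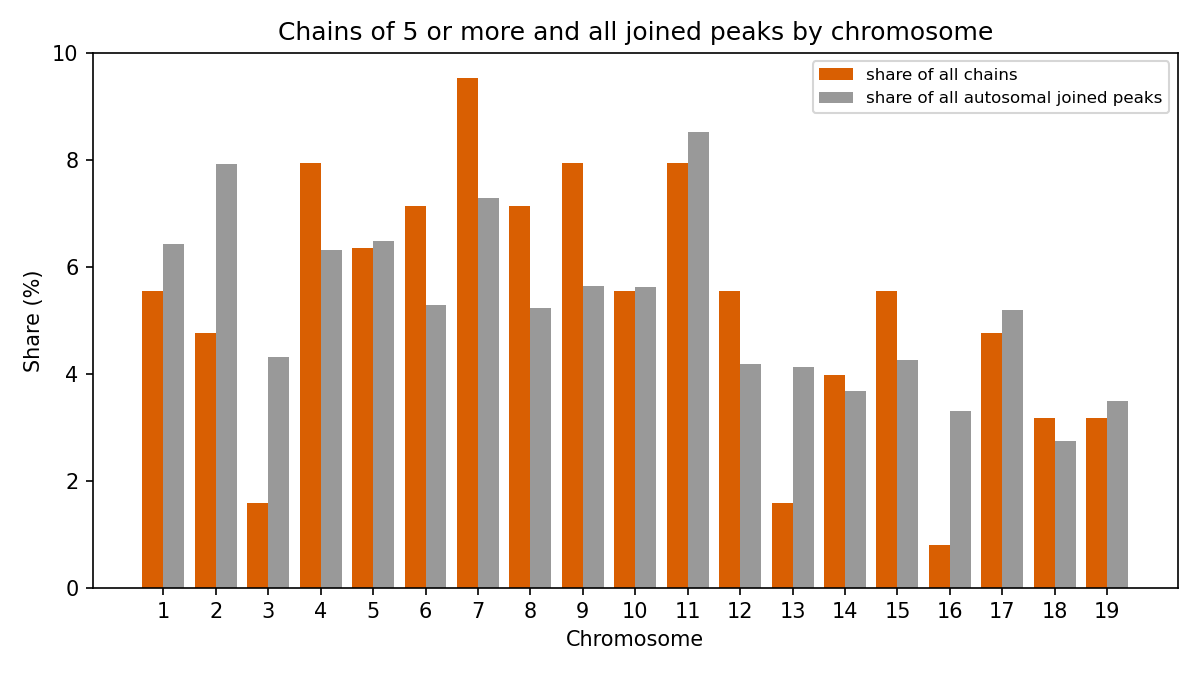
For each autosome (x axis), the share of the 126 chains and the share of the 17490 joined peaks (y axis, percent). Chromosomes 4, 6 to 9, 12, 14, 15 and 18 hold a larger share of chains than of joined peaks, and the other autosomes a smaller one.

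The largest chain lay at Rac2 and Cyth4 on chromosome 15 (mm9, 78393623 to 78445459). Rac2 is a small GTPase of blood cells that controls actin, and Cyth4 belongs to the cytohesins, which activate ARF GTPases. This chain held 11 joined peaks from 14 deposited ones in 51.8 kb, the longest span of all, with 19.1% of its bases covered. Its joined peaks were 427 to 1925 bp wide and lay 2.00 to 9.43 kb apart. A separate chain of 6 joined peaks (78340460 to 78367350) ended 26.3 kb before it, on the side of Il2rb, the receptor chain shared by IL-2 and IL-15.

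Among transcription factors, 5 of 29 listed genes were named at 5 chains. Tbx21 encodes T-bet, which directs NK cell maturation and interferon gamma production. Its chain on chromosome 11 (96964916 to 96995026) held 7 joined peaks from 11 deposited ones in 30.1 kb. The last of the 7 measured 4808 bp and was joined from 4 deposited peaks, the widest joined peak of any chain, and peaks covered 26.5% of the chain. Without joining, the same stretch ran on to 97012181 with 15 peaks. With gaps measured from edge to edge it held 10 joined peaks. The midpoint of the next joined peak lay 11.8 kb away, past the limit of 10 kb.

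Among the listed Runx genes, Runx3 and Runx1 were named at a chain, and Runx2 was not. Runx3, the immunoprecipitated factor, had a chain of 5 joined peaks from 7 deposited ones in 19.4 kb on chromosome 4 (134706281 to 134725662). Within it, joined peaks of 2471 and 2028 bp lay 1.55 and 17.4 kb from the start of the chain, and the other 3 measured 501 to 580 bp. A second chain of 7 joined peaks from 11 deposited ones (134598232 to 134637033) ended 69.2 kb before it, and with a chaining distance of 20 kb the stretch at Runx3 held 21 joined peaks. Runx1, the family member central to blood stem cells, had a sparser chain on chromosome 16 (92780136 to 92810796), with 5 joined peaks in 30.7 kb and 11.3% of bases covered. It was the only chain on chromosome 16. Its nearest outside peak lay at 10.1 kb. The stretch itself held 6 deposited peaks, and without joining a longer chain that overlapped it held 11.

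Junb encodes a subunit of the AP-1 factor, which responds to activation. Its chain on chromosome 8 (87489859 to 87514629) had 5 joined peaks, but these came from 11 deposited peaks. Joined peaks of 4093 and 4627 bp, each from 4 deposited peaks, stood side by side in its centre, and 34.7% of the 24.8 kb were covered. At Irf1, which encodes an interferon-responsive factor, 5 joined peaks, none made of several deposited ones, spanned 24.7 kb on chromosome 11 (53599497 to 53624229).

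Cytotoxic effectors had 4 of 12 listed genes at chains, with 27 joined peaks in all. Prf1 encodes perforin, which opens pores in target cells. Its chain on chromosome 10 (60759553 to 60804766) held 9 joined peaks from 12 deposited ones in 45.2 kb, and 5 of the 9 were 1261 to 1727 bp wide. A further chain of 6 joined peaks (60723639 to 60744288) ended 15.3 kb before it, the closest pair of chains in the list. With a chaining distance of 20 kb the pair became 1 chain of 15. Fasl, the ligand of the death receptor Fas, had 8 joined peaks from 9 deposited ones in 40.3 kb on chromosome 1 (163694980 to 163735295). The joined peaks were 543 to 935 bp wide and covered 14.5% of the span. Their median width was 750 bp, against 652.5 bp for all joined peaks in chains.

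Gzma encodes granzyme A, a protease of the cytotoxic granules. Its chain on chromosome 13 (113877277 to 113895480) held 5 joined peaks in 18.2 kb, with 26.1% covered. Around it, 7 other joined peaks lay within 50 kb, and a chaining distance of 20 kb gave 12. Nkg7, a protein of the granule membrane, had 5 joined peaks from 7 deposited ones in 22.7 kb on chromosome 7 (50685691 to 50708397). Joined peaks of 2949 and 2279 bp made up most of its covered bases.

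Cytokines and chemokines had 5 of 9 listed genes at 3 chains. Ccl5, Ccl3 and Ccl4 are chemokines that NK cells release on activation to draw in other leukocytes. The chain at Ccl5 on chromosome 11 (83340504 to 83383336) was the second largest, with 10 joined peaks from 12 deposited ones in 42.8 kb and a median spacing of 2.92 kb. Another chain, at Ccl3 and Ccl4 (83453399 to 83476144), began 70.1 kb beyond its end and held 5 joined peaks in 22.7 kb, each a single deposited peak. Tnf and Lta encode inflammatory cytokines of the TNF family. Their chain on chromosome 17 (35315498 to 35337862) held 6 joined peaks in 22.4 kb, and a further chain of 6 (35355487 to 35383911) began 17.6 kb beyond it.

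**Figure D3:**
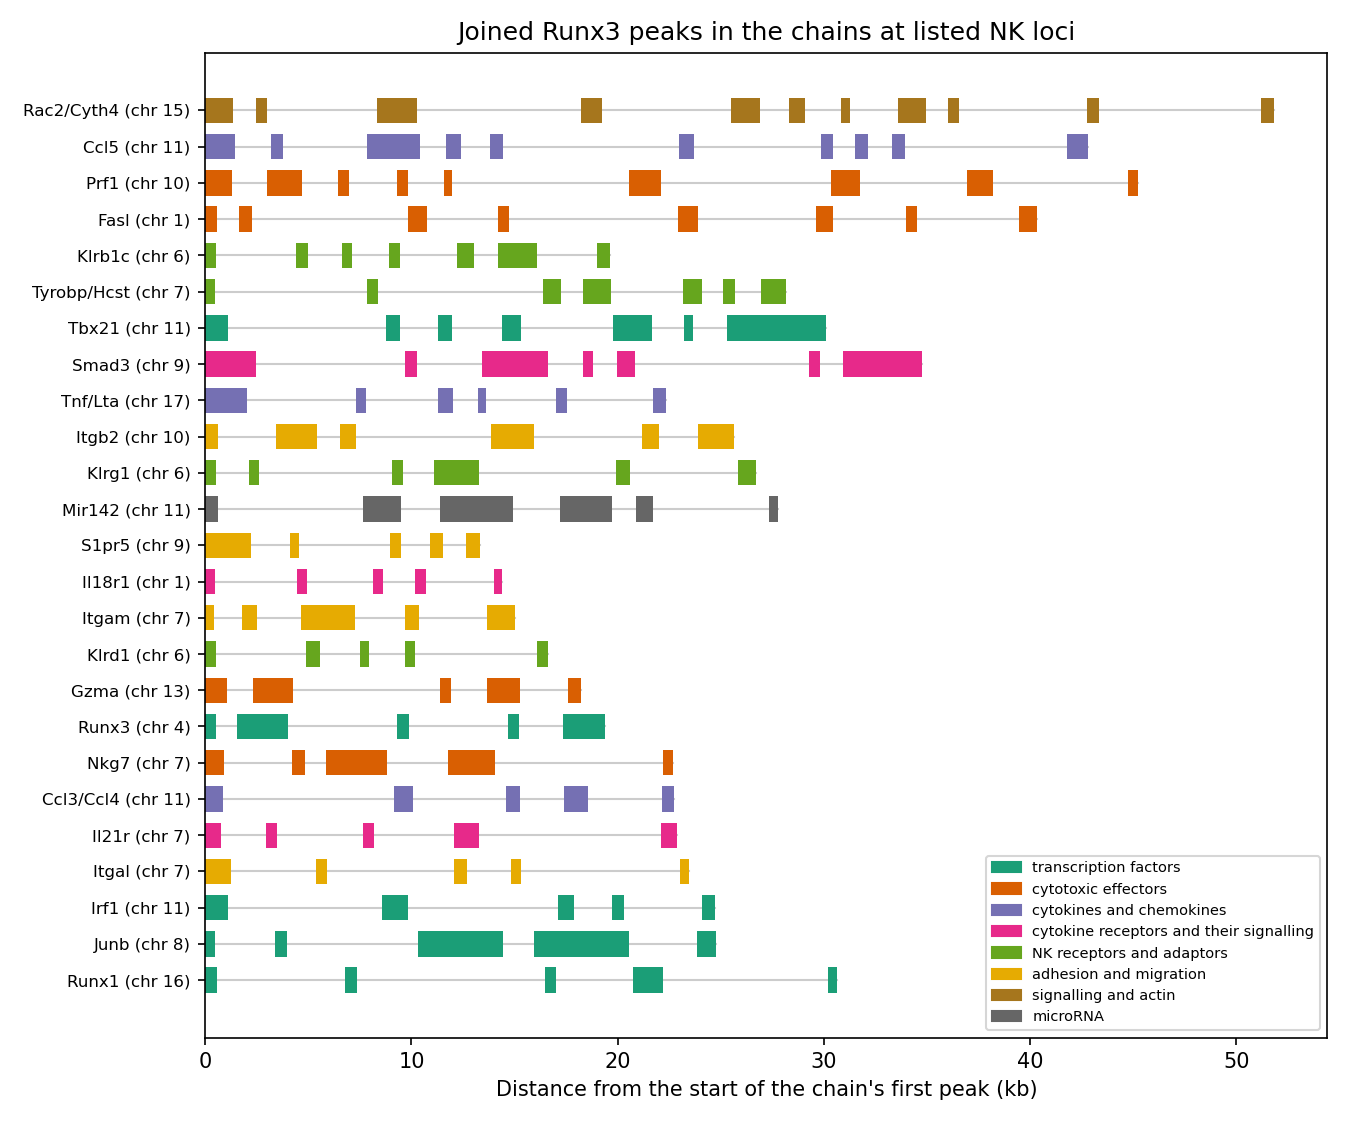
Position and width of every joined Runx3 peak (coloured blocks, drawn to scale) in the 25 chains at listed loci, by distance from the start of the first peak (x axis, kb), with colour by gene list. Wide blocks, joined across gaps of at most 1000 bp, stand out at Junb (4627 bp), Tbx21 (4808 bp), Smad3 (3840 bp) and Mir142 (3551 bp). The widest deposited peaks of these chains measured 1763, 1533, 1215 and 997 bp, in the same order. At Fasl, Il18r1 and Klrd1 the widest blocks measured 935, 558 and 685 bp.

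Receptors for cytokines and their signalling genes were named for 3 of 18 listed genes. Smad3 transmits signals of TGF-beta, which restrains NK cells. Its chain on chromosome 9 (63554113 to 63588897) held 7 joined peaks from 12 deposited ones in 34.8 kb. Joined peaks of 2474, 3172 and 3840 bp stood at its start, middle and end, with narrower ones between them. Il18r1, a chain of the IL-18 receptor, had a compact group of 5 single peaks of 343 to 558 bp in 14.4 kb on chromosome 1 (40522320 to 40536689). It was 1 of 22 chains still found with a chaining distance of 5 kb, and none of its 5 peaks reached the autosomal median width of 605 bp. At Il21r, the receptor of IL-21, 5 single peaks spanned 22.9 kb on chromosome 7 (132724479 to 132747374).

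NK receptors and adaptors had 5 of 26 listed genes at 4 chains. Klrb1c encodes NK1.1, an activating receptor of the NK gene complex. Its chain on chromosome 6 (128733964 to 128753581) was tightly packed, with 7 joined peaks in 19.6 kb at 2.18 to 4.44 kb from one another. It had 11 other joined peaks within 50 kb, more than any other chain, and a further chain of 5 (128786230 to 128802115) began 32.6 kb beyond it. With a chaining distance of 5 kb it was the largest chain. Klrd1 encodes CD94, which pairs with NKG2 receptors, and had 5 peaks of 447 to 685 bp in 16.6 kb (129531813 to 129548415). Klrg1, an inhibitory receptor of mature NK cells, had 6 joined peaks in 26.7 kb (122232614 to 122259345). Tyrobp and Hcst encode DAP12 and DAP10, adaptors through which activating receptors signal. The chain at these neighbouring genes on chromosome 7 (31179433 to 31207607) held 7 joined peaks in 28.2 kb, the last 5 of them from 16.4 kb onwards.

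Adhesion and migration had 4 of 21 listed genes at 4 chains. Itgal, Itgam and Itgb2 encode subunits of the leukocyte integrins LFA-1 and Mac-1, the last being shared by both. Itgb2 had 6 joined peaks from 10 deposited ones in 25.6 kb on chromosome 10 (76978266 to 77003903), with 24.8% covered. Itgam had 5 from 8 in 15.02 kb on chromosome 7 (135192330 to 135207349), with 30.1% covered, and Itgal had 5 from 6 in 23.5 kb (134416550 to 134440015), with 14.1% covered. All subunits of the pair of integrins thus had a chain, although the density differed. S1pr5, a receptor by which NK cells leave lymphoid organs, had 5 joined peaks within 13.3 kb on chromosome 9 (21041733 to 21055046), the shortest of the chains at listed loci, with 30.6% covered.

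Mir142 was the microRNA gene named among 4 listed. Its products act in blood cells, and its chain on chromosome 11 (87550729 to 87578528) held 6 joined peaks from 12 deposited ones in 27.8 kb. Joined peaks of 1882, 3551 and 2512 bp followed one another in its centre. Both mature strands are shown as given by RefSeq (GRCm38.p6), with the seed (bases 2 to 8), which pairs with target transcripts, in capitals.
mmu-miR-142a-5p: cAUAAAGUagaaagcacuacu
mmu-miR-142a-3p: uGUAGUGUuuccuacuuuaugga

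Chains at listed loci resembled the others in size. Their median span was 24.7 kb against 23.7 kb for the 101 others, their median cover 19.1% against 18.3%, and their median number of joined peaks 5 against 6. Of the 13 chains with 8 or more joined peaks, 4 lay at listed loci (Rac2 and Cyth4, Ccl5, Prf1 and Fasl). The other 9 were not given a name. They lay on chromosome 10 (79599816 to 79636047) with 9 joined peaks in 36.2 kb, on chromosome 9 (110543488 to 110588575) with 9 in 45.1 kb, and on chromosomes 4 (130452041 to 130482707), 12 (106228877 to 106261433), 2 (3627785 to 3661114), 18 (80876165 to 80910022), 15 (72967481 to 73001434) and 19 (53464201 to 53499628 and 57169776 to 57208094) with 8 each. Names were not sought at random among the 126 chains, so the 25 are no measure of how often a chain lies at an NK gene. Of listed autosomal marker genes of other spleen cells, 9 of T cells (among them Cd3e) and 5 of myeloid and erythroid cells (among them Csf1r), 0 were named at a chain, which by the same reasoning does not show that they lack one. Itgam, counted here with the NK loci, is also a myeloid marker.

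The shortest chain was also the most covered. It lay on chromosome 12 (88223992 to 88235871), with 5 peaks in 11.9 kb and 41.1% of bases covered. The least covered, on chromosome 9 (121186429 to 121224432), held 6 joined peaks in 38.0 kb with 10.2% covered and had 0 other joined peaks within 50 kb. Cover above 30% occurred in 7 chains, 3 of them at listed loci (Junb, S1pr5 and Itgam). Neighbouring chains lay within 100 kb of each other in 10 of 107 neighbouring pairs, among them those at Prf1, Tnf, Klrb1c, Rac2, Runx3 and Ccl5.

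**Figure D4:**
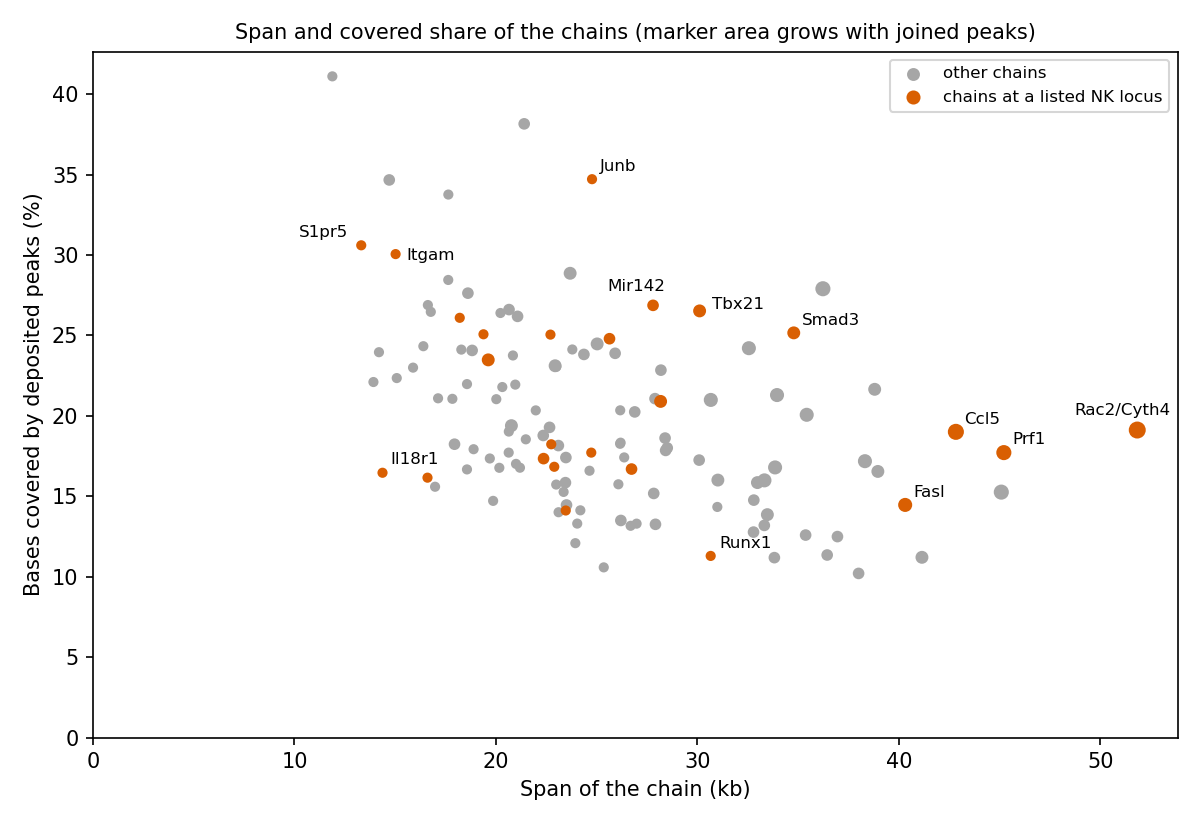
Span (x axis, kb) and share of bases covered by deposited peaks (y axis, percent) of the 126 chains, with marker area growing with the number of joined peaks. Chains at listed loci, in orange, lie among the others, with Rac2 and Cyth4 at the longest span (51.8 kb) and Junb at the highest cover of the named chains (34.7%).

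How far a chain depended on the limits differed between loci. The chain at Rac2 and Cyth4 and the one on chromosome 15 from 72967481 to 73001434 were the 2 found under all 11 other settings of the rule. A chain counted as found where a chain of that setting overlapped it. With 7 of the settings all 126 chains were found, but by construction these settings cannot lose a chain. A count of 7 is therefore the lowest possible. The loci can differ only in the other 4 (joining up to 2000 bp, chaining within 5 kb, chains of 6 or more, peaks at or above the median width). The chain at Tnf and Lta was found under 10. Those at Prf1, Fasl, Ccl5, Tbx21, Klrb1c, Tyrobp, Itgb2 and Mir142 were found under 9, and those at Runx3, Junb, Gzma, Nkg7, Klrd1 and Irf1 under 7. Each of the latter held 5 joined peaks, which the setting of 6 or more leaves out by definition, so the number of settings partly restates chain size. When joining was extended to gaps of up to 2000 bp, the chain at Ccl5 broke into parts of at most 2 joined peaks and that at Tbx21 into parts of at most 3, whereas Rac2 and Cyth4 kept 7 and Fasl 7. Keeping only peaks at or above the median width of 605 bp left 9221 joined peaks, against 17490 under the rule. With these, 18 of the 126 chains were found. Of the 25 listed chains, 5 still held 5 or more joined peaks (Rac2 and Cyth4, Ccl5, Tbx21, Itgb2 and Mir142).

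**Figure D5:**
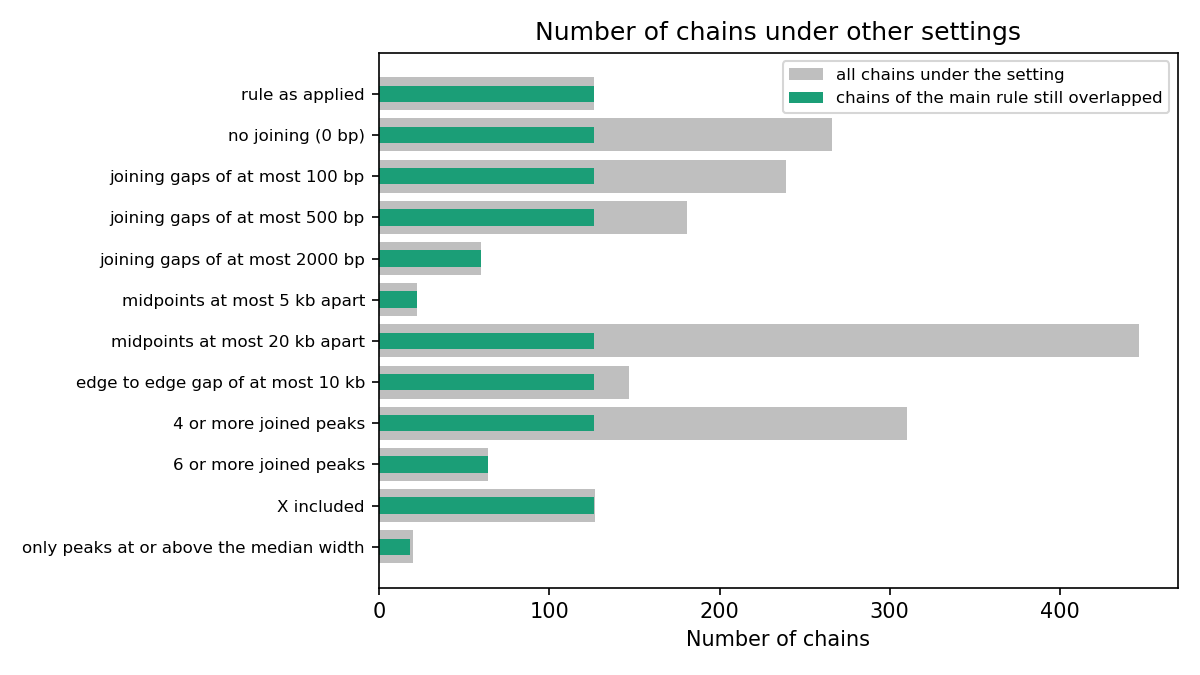
Number of chains (x axis) under the rule as applied and 11 other settings, in grey, with the number of the 126 chains that still overlap one of them in green. The count runs from 20 with the wider peaks to 447 with a chaining distance of 20 kb.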

How the data were processed

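The authors deposited 1 list of Runx3 peaks with chromosome, start and end and no other value, per the file itself. Reads of 50 bp were aligned with ELAND, per the labels' protocols, and the submitters' processing notes name CASAVA 1.8.2 and the build mm9. How peaks were called, at which threshold and with what use of the control is not stated in the labels or the file. The control library itself was not analysed here. Starts are printed counted from 1. Peaks were joined, chained and described with Python 3.11.15 and numpy 2.4.6. The code was tested on simulated data. The X chromosome (312 peaks) was left out. The members, lists and rule were chosen with earlier results of these data known. Chains named are the 10 with the most joined peaks (ties taken by the shorter span; the other 3 of the 8 chains tied at 8 joined peaks are given too), the extremes of span and cover, and those at listed loci. The plan allowed a margin of 10 kb around a listed gene. GC content and motifs of the peaks themselves, and loci by annotation, were not analysed, because no mm9 genome was used. Covered share is the bases of deposited peaks over the span of a chain. One list of marker genes of other cells is not reported here. No test was made: there is 1 library and the rule uses the positions.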

Additional observations from a re-analysis of the deposited data

How the results depend on the processing

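The rule gave 126 chains with 742 joined peaks, a median span of 23.7 kb (95% order-statistic interval over chains 22.9 to 25.9 kb) and a median cover of 18.4% (17.4 to 20.3%). The intervals treat the 126 chains of a single list as independent draws. Chains are not replicates, so the intervals do not measure how the medians would vary between libraries. Without joining there were 266 chains with 1693 peaks, median span 19.1 kb and cover 21.3%. Joining gaps of at most 100 bp gave 239 chains with 1513, 20.02 kb and 21.1%, at most 500 bp a median span of 21.6 kb, and at most 2000 bp 60 chains with 333, 27.4 kb and 16.8%. A chaining distance of 5 kb gave 22 chains with 114, 14.5 kb and 28.7%, and 20 kb gave 447 chains with 2936, 44.2 kb and 10.5%. Chains of 4 or more numbered 310 with 1478 and 18.6 kb, and chains of 6 or more 64 with 432 and 28.4 kb. Peaks at or above the median width gave 20 chains with 113, of which 18 overlapped one of the 126. These changes follow from the construction of each setting. Joining gaps of at most 500 bp (181 chains), edge to edge gaps (147) and X included (127) stayed within 1.5 times the number of chains. No paired analysis was possible because there is a single Runx3 library. Depth is unknown, so missed weak sites, which would lengthen or merge chains, cannot be counted.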

Other observations

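A pair of further chains could be named, both chosen after their values were seen. At Cd27, a receptor of the TNF receptor family that separates stages of NK cell maturation, 5 single peaks spanned 27.0 kb on chromosome 6 (125165046 to 125192028). At Btg2, an antiproliferative gene, 5 joined peaks from 9 deposited ones spanned 23.8 kb on chromosome 1 (135956352 to 135980143). With X included, 1 chain lay on X. With a chaining distance of 20 kb the largest chain lay on chromosome 7 (73205128 to 73449561) and held 25 joined peaks.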
